A study of Rattus norvegicus with 38 samples.

Results

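Cells build cholesterol and fatty acids from acetyl-CoA, and 34 genes of these routes were followed in the lungs of 38 rats. The list was taken from textbook pathways: suppliers of acetyl-CoA and NADPH, the mevalonate branch, the squalene and sterol branch, the SREBP regulators, a sterol carrier, fatty acid synthesis, and chain elongation and desaturation. Of the 34 genes, 33 were measured by a probe set that the platform annotation assigns to exactly 1 symbol, among 14217 genes so measured. Hmgcs1, which makes the precursor of mevalonate, had no such probe set and was not analysed here.

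The animals were female N:NIH rats aged 34 weeks, from lines bred for low (LCR) or high (HCR) intrinsic running capacity. On 5 days per week they were exposed to cigarette smoke or to room air (sham), and lungs were collected after 12 weeks. The groups were LCR smoke with 12 rats, LCR sham with 7, HCR smoke with 12 and HCR sham with 7. Each rat gave RNA from about 25 mg of lung, hybridised to its own Affymetrix Rat Genome 230 2.0 array. Each line is a selectively bred population, so a line difference covers every inherited difference between the lines and not running capacity alone. Comparisons were smoke against sham within each line, and LCR against HCR within each exposure. Lung transcripts were abundant on all 38 arrays, with intensities of 9829.9 to 10919 for Sftpc, the surfactant protein of alveolar type 2 cells, and 9614 to 11118 for Scgb1a1, the secretoglobin of club cells. In a piece of whole lung, fewer cells of a type and less RNA per cell cannot be told apart.

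In the mevalonate branch, acetyl-CoA units are joined and reduced to mevalonate and then made into isoprenoid diphosphates, of which farnesyl diphosphate feeds the squalene and sterol branch. The same acetyl-CoA feeds fatty acid synthase, and NADPH drives both routes. When membrane sterol is low, SCAP carries the SREBP transcription factors to the Golgi, where they are cut and released to switch on most genes of both routes, while INSIG proteins hold SCAP back when sterol is plentiful. In lung, alveolar type 2 cells use these routes to make surfactant lipid, which alveolar macrophages take up and break down.

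Promoter sequence is shown for 4 members, so that the letters shared by these genes can be seen. Fdps and Nsdhl were called higher with smoke in LCR alone, Mvk lower in both lines and Me1 higher in both. The 4 were chosen after their values were seen. RefSeq windows (build GRCr8) were found for 27 of the 34 listed genes, and Pmvk, Fdft1, Sqle, Stard4, Acaca, Fasn and Elovl6 had none. Each line below gives the 250 bases upstream of the annotated start, 5′ to 3′ on the strand of the gene, with CCAAT or its reverse complement ATTGG in capitals. CCAAT is the box bound by NF-Y, a factor that acts together with SREBP at sterol genes. Fdps (chr2:176804817-176805066, minus strand) held 2 matches and Nsdhl (chrX:155817110-155817359, plus strand) held 5. Mvk (chr12:47819504-47819753, minus strand) also held 5. Me1 (chr8:96540245-96540494, minus strand) held 0. Matches to GGGCGG, the box bound by Sp1, numbered 5 in Me1, 2 in Mvk, 1 in Fdps and 0 in Nsdhl. TGACNNNGC, the antioxidant response element, had 1 match each in Me1, Fdps and Nsdhl and 0 in Mvk.
Fdps: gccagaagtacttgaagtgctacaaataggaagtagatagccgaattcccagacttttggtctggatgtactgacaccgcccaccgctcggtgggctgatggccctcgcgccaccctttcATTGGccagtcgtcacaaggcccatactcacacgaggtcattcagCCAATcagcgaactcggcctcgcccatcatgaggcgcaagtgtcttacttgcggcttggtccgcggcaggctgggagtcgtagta
Nsdhl: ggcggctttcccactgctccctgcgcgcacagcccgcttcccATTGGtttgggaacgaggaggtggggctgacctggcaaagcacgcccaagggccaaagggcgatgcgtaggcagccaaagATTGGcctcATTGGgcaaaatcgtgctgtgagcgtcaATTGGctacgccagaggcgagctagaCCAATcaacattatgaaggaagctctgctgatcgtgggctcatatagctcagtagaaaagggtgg
Mvk: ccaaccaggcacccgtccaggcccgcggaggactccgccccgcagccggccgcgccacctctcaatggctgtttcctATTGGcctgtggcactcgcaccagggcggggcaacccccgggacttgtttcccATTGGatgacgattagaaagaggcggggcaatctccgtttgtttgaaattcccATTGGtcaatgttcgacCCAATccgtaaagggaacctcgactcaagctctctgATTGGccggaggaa
Me1: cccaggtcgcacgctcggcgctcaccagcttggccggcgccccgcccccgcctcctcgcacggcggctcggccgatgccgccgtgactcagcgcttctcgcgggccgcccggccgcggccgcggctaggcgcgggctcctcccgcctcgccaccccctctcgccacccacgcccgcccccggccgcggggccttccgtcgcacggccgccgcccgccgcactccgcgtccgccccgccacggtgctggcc

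Both strands of all 27 windows were searched for 6 motifs, and matches may overlap each other. CCAAT occurred in 19 windows (70.4%), against 35.1% of the 11733 windows of genes on the array and 34.3% of all 27457 windows in the table. GGGCGG occurred in 22 (81.5%), against 54.2% of the windows of array genes and 32.4% of all windows. TGACNNNGC occurred in 7 (25.9%, against 12.3% and 10.2%), CACGTG, the E-box, in 4 (14.8%, against 7.82% and 5.79%), and GCGTG, the core of the xenobiotic response element, in 14 (51.9%, against 41.0% and 27.2%). TCACNCCAC, one spelling of the sterol response element, was in 0 of the 27 windows and in 0.98% of the windows of array genes. These shares describe letters in the windows and were not tested.

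All changes are differences of group means of log2(intensity + 16) ± SE; the added 16 shrinks the change of dim genes. A gene was called where limma's test, adjusted by Benjamini-Hochberg over all 14217 genes, gave a p below 0.05. Counts of arrays above or below every array of another group describe single members. The share of all genes that separate in the same way was not computed. Called changes of members were small, and 1 of 33 in either line reached 1.5-fold, Me1 in both.

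In LCR lungs, smoke was followed by higher signal for 14 of the 33 members (42.4%) and lower signal for 3 (9.09%), where 22.7% of all genes were called higher and 27.9% lower (50.6% in all). The median change of the members was 0.12 log2, against -0.0046 over all genes, and 23 members had a positive sign. The 14 comprised Me1, 4 genes of the mevalonate branch, 5 of the sterol branch, Stard4, both fatty acid synthesis genes and Elovl1. The 3 lower genes were Mvk, Scap and Srebf1, none of which was called with the mean of all its probe sets. In HCR lungs, 1 member was called higher with smoke (3.03%), Me1, and 10 were called lower (30.3%), where 17.7% of all genes were called higher and 30.4% lower (48% in all). The share of lower calls in HCR was near that over all genes, as was the share called in either direction in LCR (51.5% of members). The median member change in HCR was -0.08 log2, against -0.027 over all genes, and 8 members had a positive sign. That median rests on few arrays and on the scaling: it was -0.021 without HCR smoke 0419, -0.031 without HCR sham 0433, -0.049 without HCR sham 0435, -0.048 without HCR sham 0436, -0.14 without HCR sham 0439 and -0.022 with quantile normalization.

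Between the smoke-exposed groups, 16 members were called higher in LCR than in HCR (48.5%) and 0 lower, where 4.61% of all genes were called higher and 1.7% lower (6.32% in all). The sign was positive for 32 of 33 members, with a median difference of 0.23 log2 against 0.0063 over all genes, and Elovl6 was the exception at -0.11. None of these 16 differences reached 1.5-fold. Between the sham groups, 1 member was called, Fasn, which was lower in LCR, where 3.73% of all genes were called (1.39% higher, 2.34% lower). At an unadjusted p under 0.05 limma gave 4 of 33 members between the sham groups, Fasn, Srebf1, Elovl1 and Fads2, where 17.4% of all genes passed that threshold. The test of the difference between the lines' smoke changes (the LCR change less the HCR change, here the interaction) called 5 members, each with a more positive change in LCR: Fasn, Fdps, Nsdhl, Stard4 and Elovl1. That is 15.2% of the members, where 1.52% of all genes were called positive and 0.352% negative (1.87% in all). Its median over the members was 0.19 log2, against 0.019 over all genes. For the other 28 members the interaction was not called, so a smoke call in 1 line alone does not show a difference between the lines. The comparisons share arrays, so the 9 genes among both the 14 called higher with smoke in LCR and the 16 called higher in LCR under smoke are not independent evidence, nor are the 5 (Acly, Fads1, Fdft1, Hsd17b7 and Insig1) among both the 10 called lower with smoke in HCR and those 16.

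**Figure D1:**
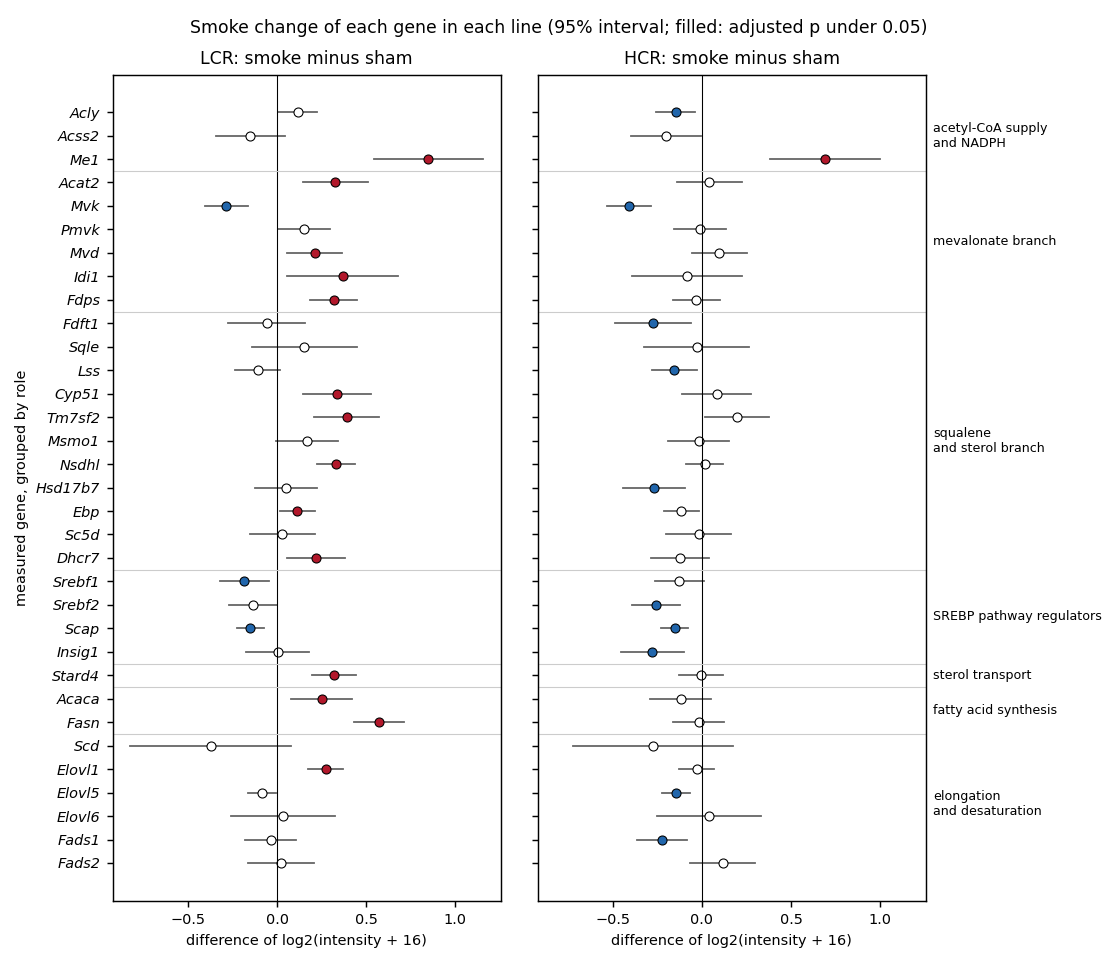
Smoke minus sham change of each measured gene in LCR (left) and HCR (right), as log2(intensity + 16) with its 95% confidence interval, ordered by role in the pathway and filled (red higher, blue lower) where the adjusted p was below 0.05. Fasn stands at 0.57 in LCR and at -0.02 in HCR, while Me1 is above 0 and Mvk below 0 in both lines.

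Some arrays stood apart, and the counts are given without them. HCR sham 0433 had a skeletal muscle marker mean of 4.75 log2 above the mean of all arrays (the next HCR sham array was at -0.03), a brown fat marker mean of 2.20 and a fat cell marker mean of 1.91. LCR sham 0442 had a heart muscle marker mean of 3.65, and HCR smoke 0415 one of 3.46. This mean was also high on HCR smoke 0410 (2.78), 0414 (1.92) and 0417 (1.43) and on HCR sham 0433 (2.02). Its average was 0.443 in HCR smoke and -0.583 in LCR smoke, although 0 of the 11 heart muscle markers were called between these groups. The part of heart tissue in the results was not tested. HCR sham 0432 had the highest 3′ minus 5′ differences of the control probe sets, a sign of RNA quality, at 2.06 log2 for Actb and 1.20 for Gapdh, while the highest on the arrays of the other groups were 1.08 and 0.394. For the members themselves, HCR smoke 0419 was the lowest of its 12 arrays for 17 of 33 members, HCR sham 0439 the lowest of its 7 for 19, and LCR smoke 0424 the highest of its 12 for 16. Without HCR sham 0433, 16 members were called with smoke in LCR, 10 with smoke in HCR, 0 between sham groups, 18 between smoke groups and 3 in the interaction. Without HCR sham 0439, these counts were 17, 13, 3, 17 and 9, in the same order of comparisons. Without HCR smoke 0419 they were 16, 9, 1, 12 and 3, and without LCR smoke 0424 they were 16, 12, 1, 12 and 3. With HCR sham 0432, HCR sham 0433 and LCR sham 0442 all left out, they were 18, 7, 1, 18 and 4, and the 1 call between sham groups was then Srebf1, higher in LCR, in place of Fasn. With HCR smoke 0410, 0414, 0415 and 0417 left out, they were 18, 12, 1, 16 and 2. With 1 array left out at a time, the count between sham groups ran from 0 to 3 and that of the interaction from 3 to 9.

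The overall level of the pathway on each array was summarised as the mean over the 33 members of the log2 value minus the mean of all arrays for that gene. It ranged from 0.0139 to 0.333 in LCR smoke, from -0.0692 to 0.0635 in LCR sham, from -0.258 to 0.00143 in HCR smoke and from -0.243 to 0.196 in HCR sham. The smoke groups of the lines did not overlap on this measure, while HCR sham spanned the whole range of LCR sham. The spread of a typical member was widest in HCR sham, with a median SD of 0.193 log2, against 0.159 in LCR smoke, 0.126 in LCR sham and 0.157 in HCR smoke. This summary is a description of the listed genes and was not tested.

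**Figure D2:**
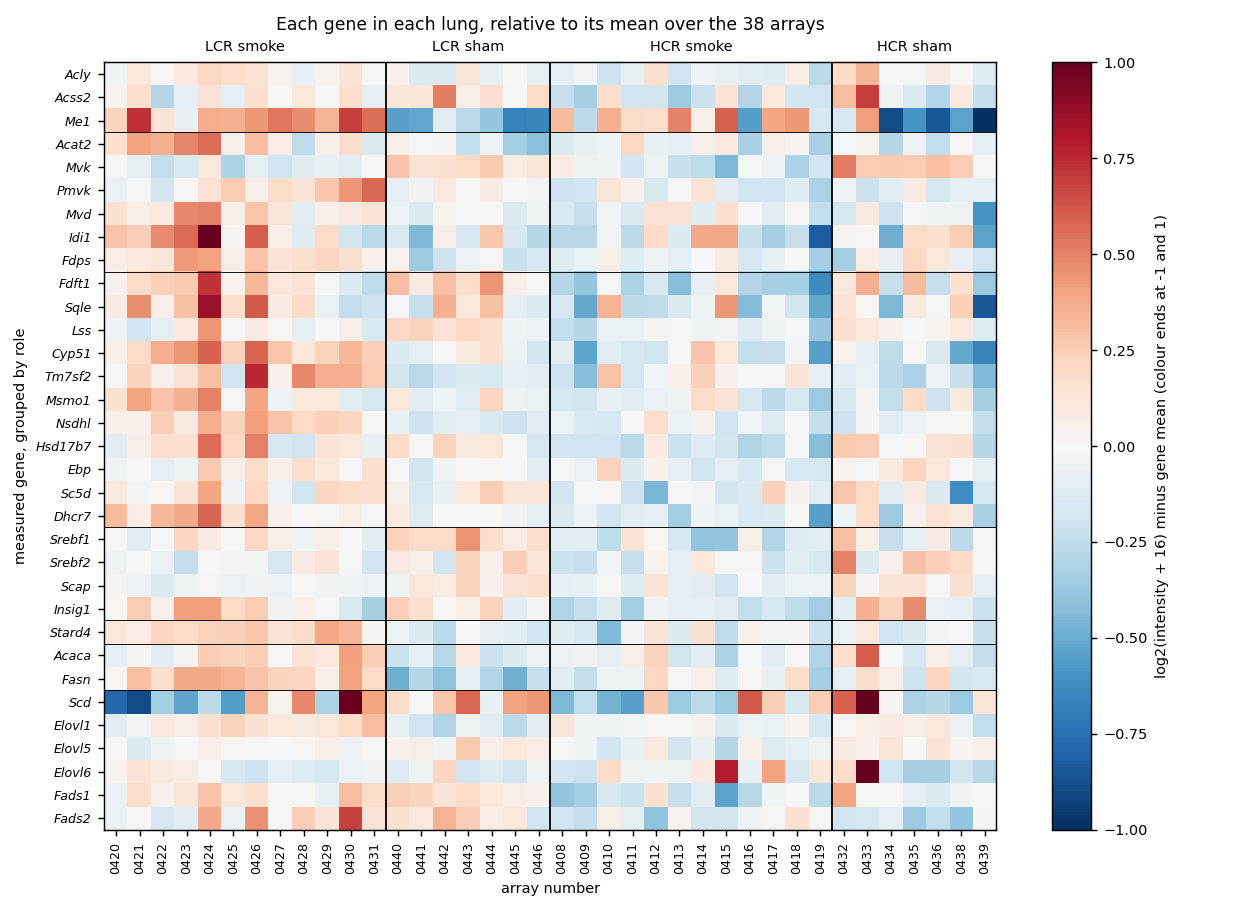
Log2(intensity + 16) of the 33 measured genes on each of the 38 arrays, minus the mean of that gene over all arrays, with arrays grouped as LCR smoke, LCR sham, HCR smoke and HCR sham and genes ordered by role. The columns of HCR smoke 0419 and HCR sham 0439 are low over much of the sterol branch, and LCR smoke 0424 is high there.

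Fasn, the fatty acid synthase that builds palmitate from malonyl-CoA, gave the largest interaction among the members. Its intensity was 2118, 2496 and 2778 (lowest, median and highest array) in LCR smoke and 1484, 1701 and 1969.9 in LCR sham. It was 1648, 2018 and 2422 in HCR smoke and 1810.2, 1959.8 and 2428 in HCR sham. All 12 LCR smoke arrays lay above every LCR sham array, whereas the HCR groups overlapped over nearly their whole range. The change with smoke was 0.57 ± 0.070 log2 in LCR (1.49-fold, adjusted p = 3.23e-08) and -0.02 ± 0.070 in HCR (adjusted p = 0.844, 95% interval -0.16 to 0.12). The interaction was 0.59 ± 0.099 (adjusted p = 0.00221, 95% interval 0.39 to 0.79). Fasn also differed between the lines in opposite directions under the exposures. Under smoke it was higher in LCR by 0.29 ± 0.060 (adjusted p = 0.00323), with 8 of 12 LCR smoke arrays above every HCR smoke array. Under sham it was lower in LCR, at -0.30 ± 0.079 (adjusted p = 0.0238), with 6 of 7 LCR sham arrays below every HCR sham array. The sham difference was not called without any 1 of LCR sham 0440, 0442 or 0445 or HCR sham 0433, 0434 or 0436. A second Fasn probe set gave the same directions, at 0.78 with smoke in LCR, 0.39 under smoke, -0.44 under sham and 0.83 for the interaction, each called; p-values of second probe sets are adjusted over all 20826 probe sets with 1 symbol.

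Acaca, the carboxylase that makes malonyl-CoA and limits the rate of fatty acid synthesis, had intensities of 372, 439 and 542 in LCR smoke and 329.8, 365 and 432 in LCR sham. The HCR values were 321, 383 and 477 in smoke and 339, 397 and 623 in sham. Acaca rose in LCR by 0.25 ± 0.084 (adjusted p = 0.0128), with 7 of 12 smoke arrays above every sham array, and its change in HCR was -0.12 (adjusted p = 0.243). Its interaction of 0.37 ± 0.12 was not called (adjusted p = 0.085).

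**Figure D3:**
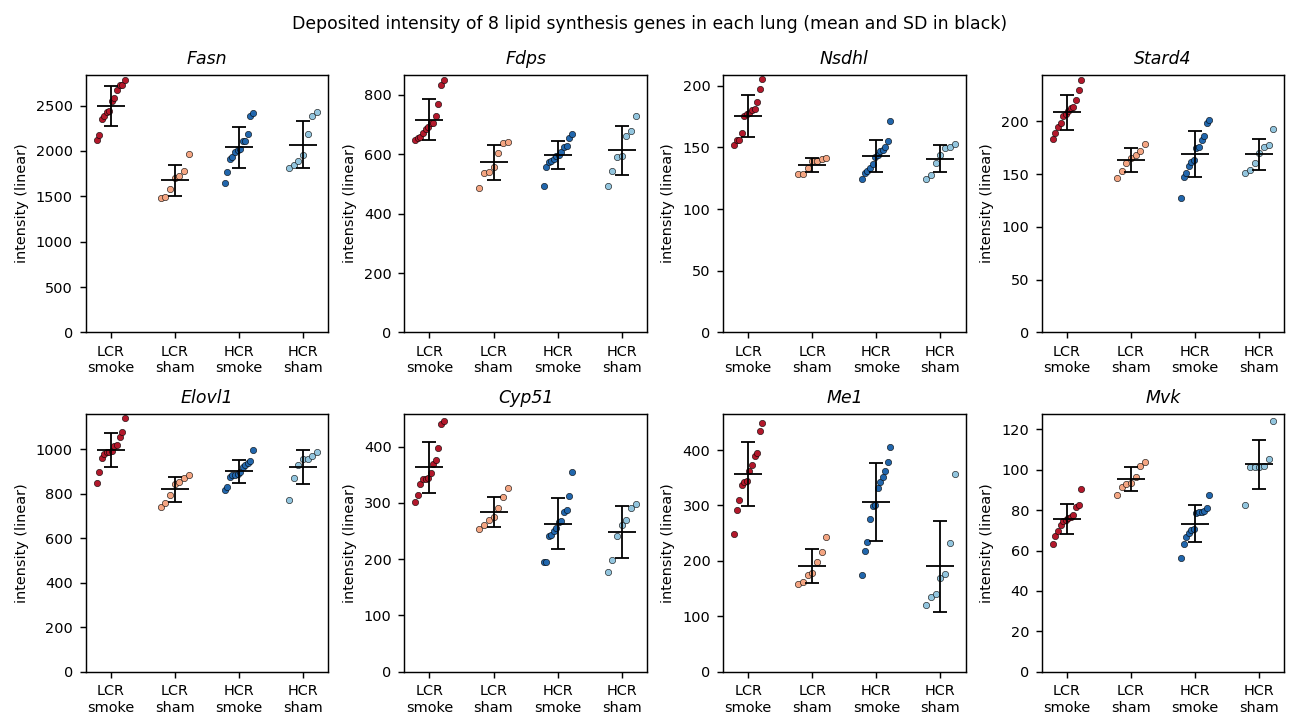
Intensity per array of 8 genes (Fasn, Fdps, Nsdhl, Stard4, Elovl1, Cyp51, Me1 and Mvk) in LCR smoke, LCR sham, HCR smoke and HCR sham, each point 1 rat, with the group mean and SD. For Fasn, Fdps, Nsdhl, Stard4 and Me1 all 12 LCR smoke points lie above every LCR sham point. The lowest smoke and highest sham points are close for Fdps (649 and 643), Stard4 (183 and 178) and Me1 (249 and 244). The share of all genes that separate in this way was not computed.

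The mevalonate branch held 4 genes called higher (66.7%) and 1 called lower (16.7%) with smoke in LCR, of 6 measured, and 0 higher and 1 lower in HCR. Over all genes these shares were 22.7% and 27.9% in LCR, and 17.7% and 30.4% in HCR. Fdps joins isoprenoid units into farnesyl diphosphate, the precursor of squalene and of protein prenyl groups. Its intensity was 649, 698 and 851 in LCR smoke and 488, 557 and 643 in LCR sham, against 493, 596 and 669 in HCR smoke and 492, 593 and 728 in HCR sham. Every LCR smoke array was above every LCR sham array, and the HCR groups overlapped. Fdps rose in LCR by 0.32 ± 0.065 (adjusted p = 0.000124), and its HCR change was -0.03 ± 0.065 (adjusted p = 0.718, 95% interval -0.16 to 0.10). The interaction was 0.35 ± 0.092 (adjusted p = 0.0411), and under smoke Fdps was higher in LCR by 0.26 ± 0.056 (adjusted p = 0.00488).

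Idi1, the isomerase that supplies dimethylallyl diphosphate to Fdps, ranged more widely, with 229.7, 329 and 571 in LCR smoke and 201, 248 and 341 in LCR sham. In HCR it had 149.8, 237 and 369.8 in smoke and 188, 286 and 337 in sham. The groups overlapped in both lines. Its change was 0.37 ± 0.15 in LCR (adjusted p = 0.0438) and -0.08 in HCR (adjusted p = 0.671), and the difference under smoke, 0.38 ± 0.13, was not called (adjusted p = 0.0736). A second Idi1 probe set was called for both, at 0.36 in LCR (adjusted p = 0.00869) and 0.44 under smoke (adjusted p = 0.00633).

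Acat2, the cytosolic thiolase that joins the first acetyl-CoA units, rose in LCR by 0.33 ± 0.090 (adjusted p = 0.00282), with intensities of 104, 145 and 194 in LCR smoke and 91.0, 122 and 133 in LCR sham. Mvd, the decarboxylase that makes isopentenyl diphosphate, rose in LCR by 0.21 ± 0.076 (adjusted p = 0.0201), with 11 of 12 smoke arrays (48.5, 59.4 and 82.6) above the sham arrays (47.2, 51.3 and 55.6). Pmvk, the phosphomevalonate kinase, was not called with smoke in either line but was higher in LCR than in HCR under smoke by 0.25 ± 0.061 (adjusted p = 0.0124), with 158, 202 and 277 in LCR smoke against 143, 163 and 201 in HCR smoke. These enzymes stand on either side of Mvk in the branch.

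Mvk, mevalonate kinase, was the member of the mevalonate branch called lower in both lines. Its intensity was 63.3, 75.7 and 90.5 in LCR smoke and 87.5, 93.7 and 104 in LCR sham, and it was 56.1, 74.6 and 87.5 in HCR smoke and 82.7, 102 and 124 in HCR sham. In each line 11 of 12 smoke arrays lay below every sham array. The change was -0.29 ± 0.060 in LCR (adjusted p = 0.000155) and -0.41 ± 0.060 in HCR (adjusted p = 1.31e-06), and the interaction of 0.12 ± 0.084 was not called (adjusted p = 0.443). The fall in LCR rests on this probe set: the other Mvk probe sets had changes of -0.0034 and 0.07 in LCR, neither called, and -0.21 (adjusted p = 0.0199) and -0.0027 in HCR. With the mean of the 3 probe sets, the change was -0.07 in LCR (adjusted p = 0.0554) and -0.21 in HCR (adjusted p = 0.00303). The Mvk window printed above held as many CCAAT matches as that of Nsdhl.

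In the squalene and sterol branch, 5 of 11 genes were called higher with smoke in LCR (45.5%, against 22.7% of all genes) and 0 lower (against 27.9%). In HCR 0 were called higher (against 17.7%) and 3 lower, a share of 27.3% that is near the 30.4% over all genes. Under smoke, 8 of the 11 were called higher in LCR than in HCR (72.7%, against 4.61% of all genes). This was the largest share of any role with more than 2 measured genes, and all 11 had a positive sign with a median of 0.27 log2. The branch begins with Fdft1, squalene synthase, and ends with Dhcr7, the reductase of the last step to cholesterol.

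Nsdhl, the dehydrogenase that acts in removing methyl groups from the sterol ring, had intensities of 152, 178 and 205 in LCR smoke and 128, 139 and 142 in LCR sham, against 125, 143 and 172 in HCR smoke and 125, 144 and 153 in HCR sham. All 12 LCR smoke arrays were above every LCR sham array, and the HCR groups overlapped. Nsdhl rose in LCR by 0.33 ± 0.052 (adjusted p = 2.33e-06), and its HCR change was 0.02 ± 0.052 (adjusted p = 0.822, 95% interval -0.09 to 0.12). The interaction was 0.32 ± 0.073 (adjusted p = 0.0216), and the difference under smoke was 0.27 ± 0.044 (adjusted p = 0.000239). A second Nsdhl probe set gave the same interaction, 0.32 (adjusted p = 0.0455), but through other changes, 0.07 in LCR and -0.25 in HCR (adjusted p = 0.00115).

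Cyp51, the demethylase of lanosterol, had intensities of 302, 349 and 445 in LCR smoke and 253, 275 and 326 in LCR sham, against 194, 261 and 356 in HCR smoke and 177, 261 and 297 in HCR sham. In LCR 10 of 12 smoke arrays exceeded every sham array, and the HCR groups overlapped. It rose in LCR by 0.34 ± 0.095 (adjusted p = 0.00369), changed by 0.08 in HCR without a call, and under smoke was higher in LCR by 0.45 ± 0.082 (1.37-fold, adjusted p = 0.000792), the largest such difference among the members. Its interaction of 0.25 was not called (adjusted p = 0.305). Tm7sf2, a sterol reductase, rose in LCR by 0.39 ± 0.089 (adjusted p = 0.000441), with 46.3, 68.4 and 105 in LCR smoke and 43.5, 48.3 and 51.5 in LCR sham. Its HCR change was 0.20 ± 0.089 (adjusted p = 0.0663), with 37.2, 55.8 and 71.0 in smoke and 36.7, 45.4 and 53.2 in sham.

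Dhcr7 rose in LCR by 0.22 ± 0.080 (adjusted p = 0.0242), and its HCR change was -0.12 (adjusted p = 0.214). Under smoke its intensity was 66.0, 73.6 and 108 in LCR and 40.7, 60.1 and 66.4 in HCR, so that 11 of 12 LCR arrays lay above every HCR array, and the difference was 0.35 ± 0.069 (1.28-fold, adjusted p = 0.00183). The sham arrays overlapped, at 59.5, 66.5 and 71.9 in LCR and 48.2, 69.9 and 78.4 in HCR. Ebp, the sterol isomerase, sat at the threshold: its LCR change of 0.11 ± 0.049 had an adjusted p of 0.049965 and its HCR change of -0.12 one of 0.0506, while its difference under smoke, 0.14 ± 0.042, was called (adjusted p = 0.0453).

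For other genes of the branch, the difference under smoke came with lower HCR smoke values. Fdft1 had 119, 160.3 and 249.6 in LCR smoke and 145, 167 and 203 in LCR sham, against 88.3, 114 and 158 in HCR smoke and 109, 158 and 189.7 in HCR sham. It fell in HCR by 0.28 on the log2 scale (SE 0.11, adjusted p = 0.0303), had a change of -0.06 in LCR (adjusted p = 0.663), and under smoke was higher in LCR by 0.40 ± 0.091 (1.32-fold, adjusted p = 0.00676). Hsd17b7, which reduces the keto sterol that Nsdhl makes, likewise changed by -0.27 ± 0.085 in HCR (adjusted p = 0.00962) and was higher in LCR under smoke by 0.31 ± 0.073 (adjusted p = 0.0106). Its intensities were 44.9, 59.7 and 86.7 in LCR smoke and 46.2, 58.5 and 65.4 in LCR sham, against 36.0, 44.9 and 57.9 in HCR smoke and 41.2, 61.4 and 67.8 in HCR sham. In each of Fdft1 and Hsd17b7, 7 of 12 LCR smoke arrays lay above every HCR smoke array. The interaction was not called for Fdft1 (0.22, limma, adjusted p = 0.447) or for Hsd17b7 (0.32, limma, adjusted p = 0.138). Their HCR calls were each lost in some of the other settings.

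Sqle, the squalene epoxidase that is a rate-limiting step after mevalonate, was not called in any comparison. Its intensity was 157, 209 and 359 in LCR smoke, 159, 187 and 248 in LCR sham, 128, 166 and 262 in HCR smoke and 97.9, 192 and 227 in HCR sham, so all groups overlapped. The difference under smoke was 0.34 ± 0.13 (adjusted p = 0.0896, 95% interval 0.09 to 0.59). Msmo1, the methylsterol oxidase, was called between the smoke groups and in no other comparison, at 0.27 ± 0.073 (adjusted p = 0.0224), with 307, 381 and 500.2 in LCR smoke against 266, 315 and 400.2 in HCR smoke. Lss, which closes squalene epoxide into lanosterol, was called lower with smoke in HCR, at -0.16 ± 0.063 (adjusted p = 0.0403), and had -0.11 in LCR (adjusted p = 0.146), where a second probe set gave 0.20 (adjusted p = 0.00157). Sc5d, the sterol desaturase, was not called in any comparison, with a difference under smoke of 0.18 (adjusted p = 0.148).

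**Figure D4:**
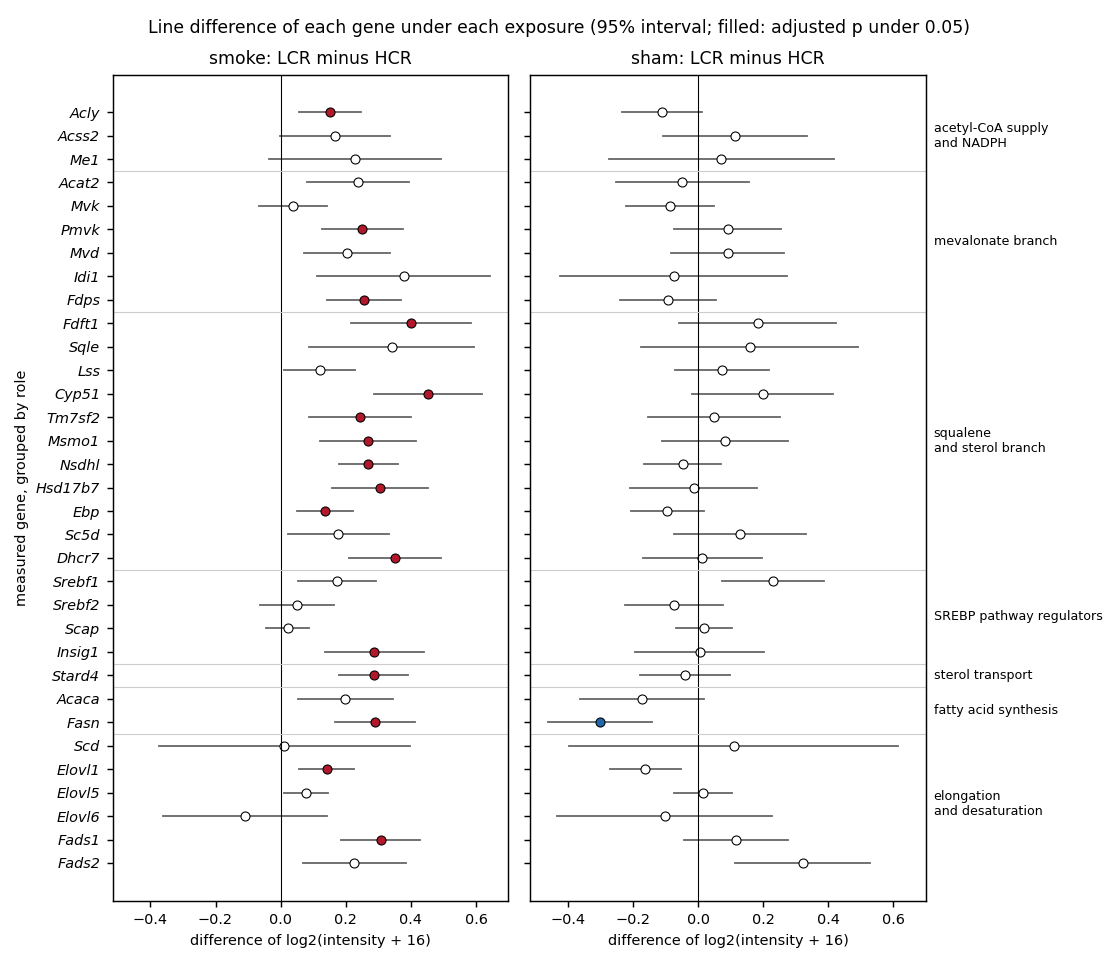
LCR minus HCR difference of each measured gene under smoke (left) and under sham (right), as log2(intensity + 16) with its 95% confidence interval, ordered by role and filled (red higher, blue lower) where the adjusted p was below 0.05. Under smoke 32 of 33 points lie above 0 and 16 are called; under sham Fasn at -0.30 is the 1 call.

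Stard4 is a soluble carrier that moves cholesterol between membranes. Its intensity was 183, 208 and 239 in LCR smoke and 146, 166 and 178 in LCR sham, against 128, 169 and 201 in HCR smoke and 151, 170.4 and 193 in HCR sham. All 12 LCR smoke arrays were above every LCR sham array, and HCR smoke enclosed HCR sham on both sides. Stard4 rose in LCR by 0.32 ± 0.061 (adjusted p = 4.31e-05), and its HCR change was -0.0032 ± 0.061 (adjusted p = 0.971, 95% interval -0.13 to 0.12). The interaction was 0.33 ± 0.086 (adjusted p = 0.0417) and the difference under smoke 0.29 ± 0.052 (adjusted p = 0.000934). Its other probe sets gave interactions of 0.09 and 0.12, which were not called.

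Among the 4 regulators, 0 were called higher with smoke in either line, 2 were called lower in LCR and 3 in HCR. Over all genes 22.7% were called higher and 27.9% lower in LCR, and 17.7% and 30.4% in HCR, and 4 genes are few for a share. Srebf1, which encodes the SREBP proteins that favour fatty acid genes, had 322, 355 and 411 in LCR smoke and 371, 402 and 485 in LCR sham, and 263, 322 and 388 in HCR smoke and 289.6, 356 and 436 in HCR sham. It fell in LCR by 0.18 on the log2 scale (SE 0.069, adjusted p = 0.0259), with 9 of 12 smoke arrays below every sham array, and its HCR change was -0.13 (adjusted p = 0.126). A second Srebf1 probe set had -0.07 in LCR (adjusted p = 0.376) and -0.15 in HCR (adjusted p = 0.0403), and with the mean of both the LCR change was not called (adjusted p = 0.0766). Srebf2, whose protein favours sterol genes, changed by -0.13 in LCR (adjusted p = 0.0838) and by -0.26 ± 0.066 in HCR (adjusted p = 0.00152). Its intensity was 405, 471 and 525 in LCR smoke and 421, 512 and 573 in LCR sham, against 406, 445 and 520.1 in HCR smoke and 434, 550.1 and 683 in HCR sham, and the groups overlapped in both lines.

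Insig1, which holds SCAP in the endoplasmic reticulum and is itself induced by SREBP, had 436, 572 and 744 in LCR smoke and 509, 577 and 653 in LCR sham, with smoke spanning the whole sham range. In HCR it had 431, 478 and 538 in smoke and 474, 526 and 772 in sham, with 6 of 12 smoke arrays below every sham array. The change was 0.0041 ± 0.087 in LCR (adjusted p = 0.974) and -0.28 ± 0.087 in HCR (adjusted p = 0.00836). Under smoke Insig1 was higher in LCR by 0.29 ± 0.075 (adjusted p = 0.017), with 9 of 12 LCR arrays above every HCR array, and the interaction of 0.28 was not called (adjusted p = 0.2). Scap fell by 0.15 on the log2 scale in each line (adjusted p = 0.00115 in LCR and 0.00117 in HCR), but a second Scap probe set had 0.25 in LCR (adjusted p = 0.00235) and 0.16 in HCR (adjusted p = 0.0587), so its direction depends on the probe set.

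Of the enzymes that lengthen and desaturate fatty acids, 1 of 6 was called higher with smoke in LCR (16.7%, against 22.7% of all genes) and 0 lower (against 27.9%). In HCR 0 were called higher (against 17.7%) and 2 lower, a share of 33.3% that is near the 30.4% over all genes. Elovl1, the elongase of saturated very long chains used for sphingolipids, had 847, 989.7 and 1139.5 in LCR smoke and 742, 844 and 883 in LCR sham, against 816, 894 and 995 in HCR smoke and 770.3, 955 and 989.8 in HCR sham. In LCR 11 of 12 smoke arrays were above every sham array, and the HCR groups overlapped. Elovl1 rose in LCR by 0.27 ± 0.048 (adjusted p = 1.5e-05), its HCR change was -0.03 ± 0.048 (adjusted p = 0.64, 95% interval -0.13 to 0.07), and the interaction was 0.30 ± 0.068 (adjusted p = 0.0171). Under smoke the line difference was 0.14 ± 0.041 (adjusted p = 0.0339), and under sham it was -0.16 (adjusted p = 0.0882).

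Fads1 and Fads2 are the desaturases of long polyunsaturated chains. Fads1 had 781, 894 and 1025 in LCR smoke and 849.6, 902 and 974 in LCR sham, against 562, 704 and 919 in HCR smoke and 749, 823 and 1087 in HCR sham. Its change was -0.04 in LCR (adjusted p = 0.695) and -0.22 ± 0.070 in HCR (adjusted p = 0.00838), with 8 of 12 HCR smoke arrays below every HCR sham array, and under smoke it was higher in LCR by 0.31 ± 0.060 (adjusted p = 0.0018). Fads2 was not called in any comparison, and its line difference of 0.32 ± 0.10 under sham had an adjusted p of 0.0687. Elovl5, the elongase of polyunsaturated chains, was called lower in HCR at -0.15 ± 0.039 (adjusted p = 0.00252), but a second probe set had a change of 0.16. Scd, which places the first double bond in stearate, had the widest spread of any member in each of the 4 groups, with 394, 609 and 1579 in LCR smoke against 706, 903 and 1121 in LCR sham. Its changes of -0.37 ± 0.22 in LCR (adjusted p = 0.158, 95% interval -0.82 to 0.08) and -0.27 ± 0.22 in HCR (adjusted p = 0.314) were not called, although 7 of 12 LCR smoke arrays lay below every LCR sham array. Elovl6, which lengthens palmitate, was dim, with group medians of 16.7 in LCR smoke, 14.9 in LCR sham, 16.8 in HCR smoke and 13.4 in HCR sham, and was not called.

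Of the 3 suppliers of acetyl-CoA and NADPH, Me1, the cytosolic malic enzyme that yields NADPH, had the largest change of any member and rose in both lines. Its intensity was 249, 353 and 448 in LCR smoke and 158, 179 and 244 in LCR sham, and 174, 316 and 405 in HCR smoke and 119.5, 169 and 357 in HCR sham. All 12 LCR smoke arrays were above every LCR sham array, and in HCR 11 of 12 were above the sham mean and 3 above every sham array. The change was 0.85 ± 0.15 in LCR (1.80-fold, adjusted p = 1.85e-05) and 0.69 ± 0.15 in HCR (1.62-fold, adjusted p = 0.000339). The interaction was 0.16 ± 0.21 (adjusted p = 0.737, 95% interval -0.28 to 0.59), so a sizeable difference in either direction is within its interval. A second probe set had 0.92 in LCR and 0.85 in HCR. The Me1 window printed above was the 1 of the 4 with no CCAAT match. Among the other windows searched, those of Acat2, Cyp51, Dhcr7, Elovl1, Fads2, Scap and Scd also had 0.

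Acly, which cleaves citrate to cytosolic acetyl-CoA, had 1045, 1156 and 1278 in LCR smoke and 995, 1046 and 1200.2 in LCR sham, against 913, 1040.4 and 1234 in HCR smoke and 1006, 1099 and 1398 in HCR sham. The groups overlapped in both lines. Its change was 0.12 ± 0.054 in LCR (adjusted p = 0.0739) and -0.15 ± 0.054 in HCR (adjusted p = 0.0248), and under smoke it was higher in LCR by 0.15 ± 0.046 (adjusted p = 0.0428). Acss2, which makes acetyl-CoA from acetate, was not called in any comparison, with medians of 143 in LCR smoke, 155 in LCR sham, 121 in HCR smoke and 137 in HCR sham.

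Members that vary together between rats were looked for within each group, with Sqle standing for the sterol branch and Fasn for fatty acid synthesis. Of 256 correlations (Pearson, permutation test, Benjamini-Hochberg over the 256), 8 had an adjusted p below 0.05, all in smoke groups of 12 and none in sham groups of 7. With 7 arrays a call needs a higher r. The median r of 32 members with Sqle was 0.382 in LCR smoke, 0.387 in LCR sham, 0.341 in HCR smoke and 0.514 in HCR sham. With Fasn it was 0.252, 0.088, 0.458 and 0.249 in the same order. The lack of sham calls therefore does not show that members vary together under smoke alone. In LCR smoke, Sqle correlated with Fdft1 (r = 0.920, rho = 0.846, permutation p = 1e-05, the smallest the resamples can give, adjusted p = 0.00256), and r was 0.823 without the 2 arrays farthest from the Sqle median. It correlated there with Insig1 (r = 0.866, rho = 0.923, permutation test, adjusted p = 0.0265), with r = 0.867 without the 2 arrays, and with Msmo1 (r = 0.865, rho = 0.818, permutation test, adjusted p = 0.0256), with 0.790 without them. For Idi1 r was 0.812 (rho = 0.706, permutation test, adjusted p = 0.0387) and 0.556 without the 2 arrays, so that relation rests in part on them. In HCR smoke, Sqle correlated with Fdft1 (r = 0.820, rho = 0.636, permutation test, adjusted p = 0.0387), with r = 0.549 without the 2 arrays. Fasn correlated with Fads1 in LCR smoke (r = 0.839, rho = 0.755, 0.689 without the 2 arrays) and with Nsdhl (r = 0.828, rho = 0.804, 0.649) and Lss (r = 0.811, rho = 0.671, 0.624) in HCR smoke. By Spearman's rho, Sqle with Insig1 in LCR smoke was the 1 relation of the 256 with an adjusted permutation p below 0.05 (0.0205). All values of 1 rat come from 1 array and share its quality.

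**Figure D5:**
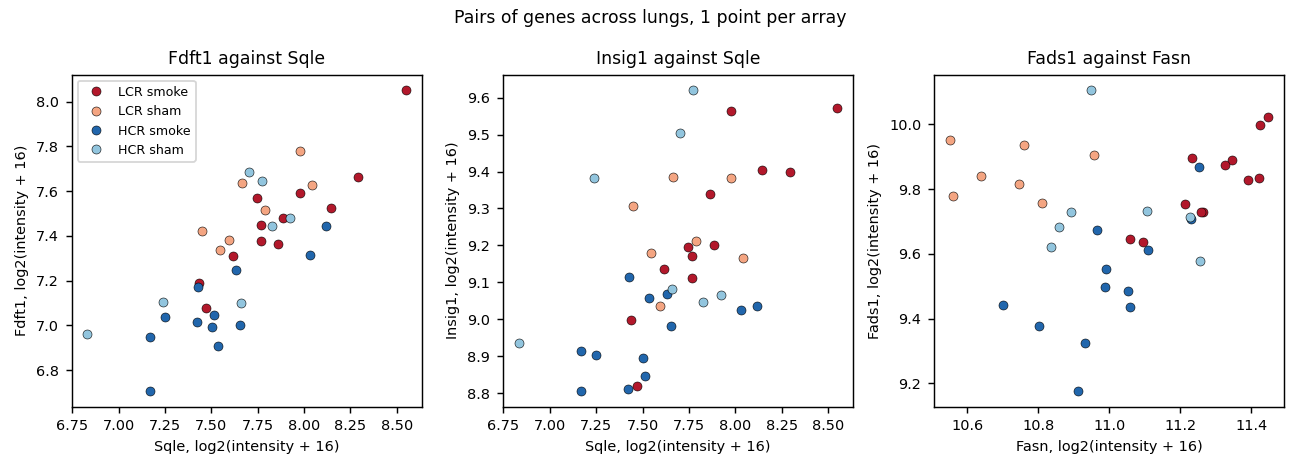
Log2(intensity + 16) of Sqle against Fdft1 and Insig1 and of Fasn against Fads1, each point 1 rat, marked by group. Sqle and Fdft1 rise together among LCR smoke (r = 0.920) and HCR smoke (r = 0.820) rats, and Fasn and Fads1 among LCR smoke rats (r = 0.839).

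Over all 38 arrays after subtraction of group means, the gene most like Sqle among the other 14216 was Fdft1 (r = 0.840), followed by Idi1 (0.783), Ifitm1 (0.757), Ruvbl2 (0.732) and Urah (0.729). For Fasn the leading genes were Dpp7 (0.704), Arg1 (0.691), Abcg1 (0.672), Card14 (0.670) and Pld3 (0.660), with Acaca at rank 6 (0.645). For Sqle the first 2 genes were members of the list, but Ifitm1, Ruvbl2 and Urah were not. Its other members ranged from Msmo1 at rank 6 to Elovl5 at rank 13302. For Fasn the first 5 genes were outside the list, and members ranged from Acaca at rank 6 to Mvk at rank 8002. These correlations are a description over arrays.

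Other genes of the pathways, from further textbook lists, gave these counts. Smoke called 22.7% of all genes higher and 27.9% lower in LCR (50.6% in all), and 17.7% and 30.4% in HCR (48% in all). In LCR, 44.4% of other sterol and 58.1% of other fatty acid genes were called in either direction, near the share over all genes. In HCR these shares were 77.8% and 38.7%. Between smoke groups 6.32% of all genes were called, and in the interaction 1.87%. Of 18 other sterol genes measured, 6 were called higher and 2 lower with smoke in LCR, and 5 higher and 9 lower in HCR. Ch25h, which makes an oxysterol that holds back SREBP, rose by 1.62 in LCR and 1.28 in HCR, and Soat1, which esterifies cholesterol for storage, rose by 0.94 in LCR and 0.55 in HCR. Mbtps1 was called lower in both lines, at -0.35 in HCR, where it had the smallest p of this list. Under smoke, 3 of the 18 were called higher in LCR than in HCR (Coq2 0.28, Tmem97 0.16 and Stard3 0.12), and the interaction was called for 2, Npc2, the lysosomal sterol carrier, at 0.29 (adjusted p = 0.0317), and Stard5. Of 31 other fatty acid genes, 12 were called higher and 6 lower with smoke in LCR, and 4 higher and 8 lower in HCR. Idh1, a cytosolic source of NADPH, rose by 0.71 in LCR and 0.62 in HCR. Mlxip was called lower in both lines, at -0.33 in LCR and -0.43 in HCR, as was Fads3, at -0.53 in HCR. Between smoke groups 2 of the 31 were called, both higher in LCR (6.45%, near the 6.32% over all genes), and the interaction was called for 2 (6.45%). Slc25a1, the mitochondrial citrate carrier that supplies the substrate of Acly, was called under smoke (0.29, adjusted p = 0.00122) and in the interaction (0.35, adjusted p = 0.0375), as was the acyltransferase Agpat2 in the interaction (0.60, adjusted p = 0.0271). Under sham 5 of the 31 were called lower in LCR (16.1%), Agpat2 among them, where 2.34% of all genes were called lower. Of 16 surfactant phospholipid genes, 11 were called higher and 0 lower with smoke in LCR, and 5 higher and 0 lower in HCR, with Fabp5, a fatty acid binding protein, at 1.21 in LCR and 0.80 in HCR. The difference between these lists and the members was not tested.

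Markers of several cell types moved in the same comparisons. The shares of all genes called with smoke were 22.7% higher and 27.9% lower in LCR, and 17.7% higher and 30.4% lower in HCR. Between sham groups 2.34% of all genes were called lower in LCR. Between smoke groups 4.61% were called higher in LCR, and 1.52% had a positive interaction call. All 10 measured alveolar macrophage markers were called higher with smoke in LCR and 7 in HCR, and 3 were lower in LCR under sham. The mean of this list over arrays was 0.0676 to 0.959 log2 in LCR smoke, -1.21 to -0.640 in LCR sham, -0.547 to 0.952 in HCR smoke and -1.13 to -0.227 in HCR sham. HCR smoke 0419 and HCR sham 0439, low for many members, were also the lowest of their groups on this list, but not on this list alone. HCR smoke 0419 was also the lowest for alveolar type 2 markers, neutrophil markers and surfactant phospholipid genes. HCR sham 0439 was also the lowest for surfactant phospholipid genes and for fat cell, skeletal muscle and heart muscle markers. Neither was the lowest for club cell or lipofibroblast markers. LCR smoke 0424, high for many members, was not high on the macrophage list, at 0.403 against a group median of 0.558. The interaction was called for Mrc1 (0.62) and Pparg (0.48), and Ctsk was higher in LCR under smoke (0.55, adjusted p = 0.0405). Of the 10 alveolar type 2 markers, 7 were called higher and 0 lower with smoke in LCR. In HCR 3 were called higher and 1 lower, Etv5 at -0.38 (limma, adjusted p = 0.00221). The list mean was 0.00249 to 0.105 in LCR smoke, -0.363 to -0.0139 in LCR sham, -0.0851 to 0.121 in HCR smoke and -0.108 to 0.0939 in HCR sham. Of the 11 fat cell markers, 1 was called lower with smoke in LCR and 3 in HCR. Of the 6 lipofibroblast markers, 4 were called higher and 2 lower (Pdgfra and Tcf21) with smoke in LCR, 1 higher and 2 lower in HCR, and Plin2 was higher in LCR under smoke by 0.30; the list mean was -0.222 to 0.187 in LCR smoke, -0.151 to 0.0954 in LCR sham, -0.197 to 0.0977 in HCR smoke and -0.147 to 0.229 in HCR sham. Of the 6 neutrophil markers, 5 were called higher in LCR and 4 in HCR, with a list mean of 0.339 to 0.859 in LCR smoke, -1.17 to -0.578 in LCR sham, -0.375 to 1.03 in HCR smoke and -1.47 to 0.431 in HCR sham. Of the 5 club cell markers, 4 were called lower in LCR, and 1 higher and 1 lower in HCR, with a list mean of -0.978 to 0.418 in LCR smoke, 0.108 to 1.26 in LCR sham, -0.833 to 1.03 in HCR smoke and -0.779 to 0.868 in HCR sham. The part of these cell types in the results was not tested.

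The array median of log2 values was 5.92 to 6.01 in LCR smoke, 6.001 to 6.06 in LCR sham, 5.92 to 5.99 in HCR smoke and 5.98 to 6.05 in HCR sham. The interquartile range was 2.79 to 3.005 in LCR smoke, 2.97 to 3.04 in LCR sham, 2.74 to 2.94 in HCR smoke and 2.94 to 3.04 in HCR sham, and the HCR groups did not overlap on it. The Actb 3′ minus 5′ difference averaged 0.651 in LCR smoke and 0.841 in LCR sham, and 0.666 in HCR smoke and 0.922 in HCR sham, so it too moved with smoke. With it as a covariate, 15 members were called with smoke in LCR, 7 in HCR, 2 between sham groups, 18 between smoke groups and 7 in the interaction. With the interquartile range as a covariate, 13 members were called with smoke in LCR, 4 in HCR, 3 between sham groups, 12 between smoke groups and 4 in the interaction. Across each array left out in turn and 16 other settings (15 for the interaction), the call held in all of them for 9 of 17 members in LCR (Acaca, Cyp51, Elovl1, Fasn, Fdps, Me1, Nsdhl, Stard4 and Tm7sf2), 3 of 11 in HCR (Me1, Mvk and Srebf2), 10 of 16 between smoke groups (Cyp51, Dhcr7, Fads1, Fasn, Fdft1, Fdps, Hsd17b7, Insig1, Nsdhl and Stard4), and 1 of 5 in the interaction (Fasn). The fold minimum was not among these settings. At 1.5-fold, 1 call was left with smoke in LCR, 1 with smoke in HCR, 0 between smoke groups and 1 in the interaction.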

How the data were processed

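Lung RNA of 38 rats was hybridised to 1 array each, per the labels' protocols. The authors deposited 1 table of linear intensity values (2.09 to 11558) for 31099 probe sets, with the summarising and normalizing software not given in the sources used here. Values were taken as log2(intensity + 16), with no further normalization and no filter on low values. Controls (57) and probe sets with several symbols (436) or none (9780) were left out. Where a gene had more than 1 probe set, that with the highest mean was kept. Groups came from the labels, which describe separate animals and no batch; array numbers were assigned in runs by group, so their order and the group cannot be told apart.

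Group means were fitted to all arrays with limma 3.58.1 (lmFit, eBayes, two-sided) in R 4.3.3, a step tested on simulated data, with Benjamini-Hochberg adjustment over 14217 genes. Adjusted p-values of genes are limma's. Correlations were tested by permutation of pairings, two-sided, exact in groups of 7 and with 100000 resamples in groups of 12 (SciPy 1.17.1). Of 20826 probe sets with 1 symbol, 20758 matched a RefSeq gene ID. The number of arrays limits the precision.

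The members, lists, tests and alternatives were chosen with earlier results of these data known. Any measured member could be named, and of other lists up to 3 called genes per comparison by smallest p. Alternatives were quantile normalization, median-centred arrays, pseudocounts of 1 and 64, a filter on low genes, other probe set rules, fits of only the groups compared, a variance trend, array weights, 3 quality covariates, a fold minimum, and arrays left out.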

Additional observations from a re-analysis of the deposited data

Results flagged for a closer look

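The smoke change differed between the lines for 5 members by the test of the difference itself. The LCR change less the HCR change was 0.59 log2 for Fasn, 0.35 for Fdps, 0.33 for Stard4, 0.32 for Nsdhl and 0.30 for Elovl1, with adjusted p from limma of 0.00221, 0.0411, 0.0417, 0.0216 and 0.0171 in that order.

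Single arrays lay far from the others of their group in 6 of 66 sham groups of 7 examined (33 members in each of 2 lines), by a rule that flags about 1 in 20 groups by chance. On LCR sham 0442, Acss2 was at 7.81 log2 (next highest 7.49) and Elovl6 at 5.30 (next 5.03), the array with high heart muscle markers. On HCR sham 0433, Elovl6 was at 6.41 (next 5.26), the array with high fat and muscle markers; without it, the smoke change of Elovl6 in HCR was called (adjusted p = 0.0325). On HCR sham 0439, Mvd was at 5.53 (next lowest 5.92). On LCR sham 0443, Srebf1 was at 8.97 (next 8.75), and on HCR sham 0432, Fads1 was at 10.11 (next 9.73). The part of these tissues in the values was not tested.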

How the results depend on the processing

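With the mean of all probe sets of a gene, the smoke change turned to 0.051 for Scap in LCR (adjusted p = 0.178), 0.0013 for Scap in HCR (0.977) and 0.0066 for Elovl5 in HCR (0.966), because second probe sets went the other way, and Mvk (0.0554) and Srebf1 (0.0766) lost their LCR calls. Of 17 members called with smoke in LCR, 1 reached 1.5-fold. Smoke in HCR (11 calls) gave 7 with the Actb 3' minus 5' difference as a covariate, all among the 11, 4 with the interquartile range (3 of the 11), 7 without 3 sham arrays (6 of the 11), 7 without 7 arrays (5 of the 11), and 1 at 1.5-fold. Between sham groups (1 call), the count was 2 with median-centred arrays, 0 with only the groups compared, 2 with array weights, 2 with the Gapdh and 2 with the Actb covariate, 3 with the interquartile range, 2 without 7 arrays (Acss2 and Srebf1, higher in LCR, without Fasn), and 0 at 1.5-fold. Of 16 calls between smoke groups 0 reached 1.5-fold. The interaction (5 calls) gave 3 with quantile normalization, 8 with median-centred arrays, 8 with array weights, 2 without 4 HCR smoke arrays, and 1 at 1.5-fold. The cause of these shifts was not tested.

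With 1 array left out, the counts ran from 14 to 18 for smoke in LCR, 8 to 13 for smoke in HCR, 0 to 3 between sham groups, 12 to 18 between smoke groups and 3 to 9 in the interaction. The sham count was 0 without LCR sham 0440, 0442 or 0445 or HCR sham 0433, 0434 or 0436, 2 without LCR smoke 0430, LCR sham 0446 or HCR sham 0432, and 3 without HCR sham 0439. The interaction count was 3 without LCR smoke 0424, 0426 or 0429, LCR sham 0441, 0442, 0445 or 0446, HCR smoke 0419, or HCR sham 0433, 0434, 0435 or 0436, and 9 without HCR sham 0439. No paired analysis was possible because array numbers are not shared between groups.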

Other observations

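Other probe sets of called members, where the array had them, mostly shared the sign of the one used. With smoke in LCR, 10 of 12 had the same sign and 7 were called with it, while 1, of Scap, was called with the opposite sign. With smoke in HCR 5 of 9 had the same sign and 2 were called. Between smoke groups 7 of 7 had the same sign and 4 were called, and in the interaction 4 of 4 and 2.

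Dgat2, which makes the last bond of triglyceride, rose with smoke in LCR by 0.82 log2 and under sham was lower in LCR than in HCR, at -0.53. Acot1, an acyl-CoA hydrolase, was called lower with smoke in HCR and lower in LCR than in HCR under sham, at -0.99 (limma, adjusted p = 0.0186). It was dim, with median intensities of 10.5 in LCR smoke, 14.1 in LCR sham and 9.79 in HCR smoke. Both calls rest on HCR sham, with a median of 40.2 and arrays from 9.09 to 109.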
